A study of Mus musculus with 8 samples.

Results

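Iscu and 8 further genes of mitochondrial iron-sulfur cluster assembly (Nfs1, Lyrm4, Hscb, Glrx5, Isca1, Isca2, Bola3 and Nfu1) were followed in 8 RNA-sequencing libraries of immortalised mouse skin fibroblasts. The genes were chosen by name. Each had a single row among the 17091 features of the deposited table, and all 9 were among the 12107 features that reached a normalised read count of 10 in at least 2 libraries and were tested. The libraries fell into 4 groups of 2: KO hypoxia, KO normoxia, WT hypoxia and WT normoxia. Hypoxia was 1% oxygen and normoxia 21% oxygen, each for 24 hours. WT cells came from C57BL/6 mice. KO is the libraries' own name for cells from C57BL/6 mice with the genotype mir210lox/lox, in which loxP sites mark a stretch of DNA that the Cre recombinase can remove. The labels name no Cre, and KO is kept below as a group name only. How the cells were immortalised, whether each genotype was 1 line or several, and whether replicates were grown separately is not given in the labels. P-values therefore rest on a spread between libraries that may be technical, and a difference between genotypes cannot be told apart from a difference between lines.

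Iron-sulfur clusters are small inorganic cofactors that carry electrons in the respiratory chain and sit at the active sites of enzymes such as aconitase. They are built in the mitochondrial matrix on the scaffold protein Iscu, with sulfur that the desulfurase Nfs1 and its partner Lyrm4 take from cysteine. The co-chaperone Hscb and the glutaredoxin Glrx5 move the new cluster on, and Isca1, Isca2, Bola3 and Nfu1 act late, in making and delivering the larger clusters. The microRNA miR-210 is induced by HIF, which drives the transcriptional answer to low oxygen, and in human cells ISCU is among its best known targets. The design therefore allows the question whether these transcripts differed between hypoxia and normoxia and between KO and WT cells.

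The sequences below show what miR-210 could pair with in these genes. The mature microRNA is given from RefSeq (GRCm38.p6, chr7:141221407-141221428, minus strand), with its seed, bases 2 to 8, in capitals. The match to the seed, ACGCACA, was searched for in the 3′ UTRs of GENCODE M21 transcripts (GRCm38), and the capitals in the Iscu and Isca1 windows of 30 bases mark it.
mmu-miR-210-3p: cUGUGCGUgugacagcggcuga
Iscu site: atcaaagaagctacgcaaaACGCACActat
Isca1 site: tactacaggccagccttgaACGCACAatcc
The Iscu match lies in the 3′ UTR, in the last exon, of 3 annotated transcripts (chr5:113777971-113778000, plus strand). The Iscu transcript with the longest 3′ UTR, of 740 bases, does not hold it. The Isca1 match lies in the 3′ UTR, again in the last exon, of 2 annotated transcripts (chr13:59755724-59755753, minus strand). The other 7 genes had no match in any annotated transcript. Taking the longest 3′ UTR of each coding gene, 646 of 21022 (3.07%) held the match. Among 3′ UTRs within 20% of the length of the main Iscu form with the match (370 bases), 6 of 1806 held it (0.33%), and among those like Isca1 in length (1446 bases) 85 of 2844 (2.99%). A match of letters is a description, not evidence of binding. Coordinates are those of the annotation, since the build behind the deposited table is not known here.

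By estimate, 6.25 M to 11.75 M reads per library stood behind the values. Mir210, the targeted gene, was listed at 1, the lowest value of the table, in all 8 libraries, so this row does not check the KO label. Known hypoxia-induced genes followed the oxygen label. Of 10 such genes, 7 were higher in hypoxia in KO cells and 7 in WT cells (limma, adjusted p under 0.05). Medians of the 10 were 3.03 in KO and 3.20 in WT cells on the log2 scale. In KO cells these 7 were the only features called. The list was chosen with earlier results of these data known, so it is not an independent check. Values depended on transcript length in a way that differed between libraries, from -0.12 on the log2 scale per doubling of length in KO normoxia replicate 1 to 0.11 in KO normoxia replicate 2. WT hypoxia replicates 1 and 2 were at -0.07 and -0.08. Fibroblast markers were present in every library (sum over 11 genes 61232 to 92274, with Vim at 22681 to 35333 and Col1a1 at 4983 to 8590). Among markers of other cell types, the leukocyte gene Ptprc stood at 1 to 6, the endothelial gene Pecam1 at 1 or 2 and the keratinocyte gene Krt5 at 1. Some muscle and adipocyte markers were well above that, with Acta1 at 401 to 977, Myh11 at 25 to 398 and Pparg at 168 to 437, while the muscle gene Myh3 and the adipocyte gene Cidec were at 1 in every library. Dcn, Lum and Fap, further fibroblast markers, were low as well (12 to 93, 1 to 36 and 4 to 40).

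In these libraries Iscu was a low to moderate transcript. With values at 93.4 on average, it lay above 28.3% of the tested features. Glrx5 was the highest of the 9 genes (678.0, above 76.2%), Nfs1, Lyrm4 and Nfu1 lay near the middle of all tested features (above 52.1%, 51.1% and 50.8%), and Hscb (55.1) and Isca1 (42.5) were the lowest. Per kilobase of the median annotated transcript, Glrx5 was again the highest, at 855.0 normalised counts. Nfu1 followed at 309.4, Nfs1 at 229.5, Bola3 at 215.3 and Isca2 at 178.1. Hscb at 124.4, Lyrm4 at 124.3 and Iscu at 120.8 were closer to each other than their spread over libraries, and Isca1 was the lowest at 16.9. This order depends on which transcript is used: by the longest one, Glrx5 (231.8) and Isca1 (10.5) kept the first and last place, and Bola3 came next to last at 51.6. Estimated reads for Iscu were 63.3 to 120.7 per library, which gives a counting error of 9.1% to 12.6%.

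**Figure D1:**
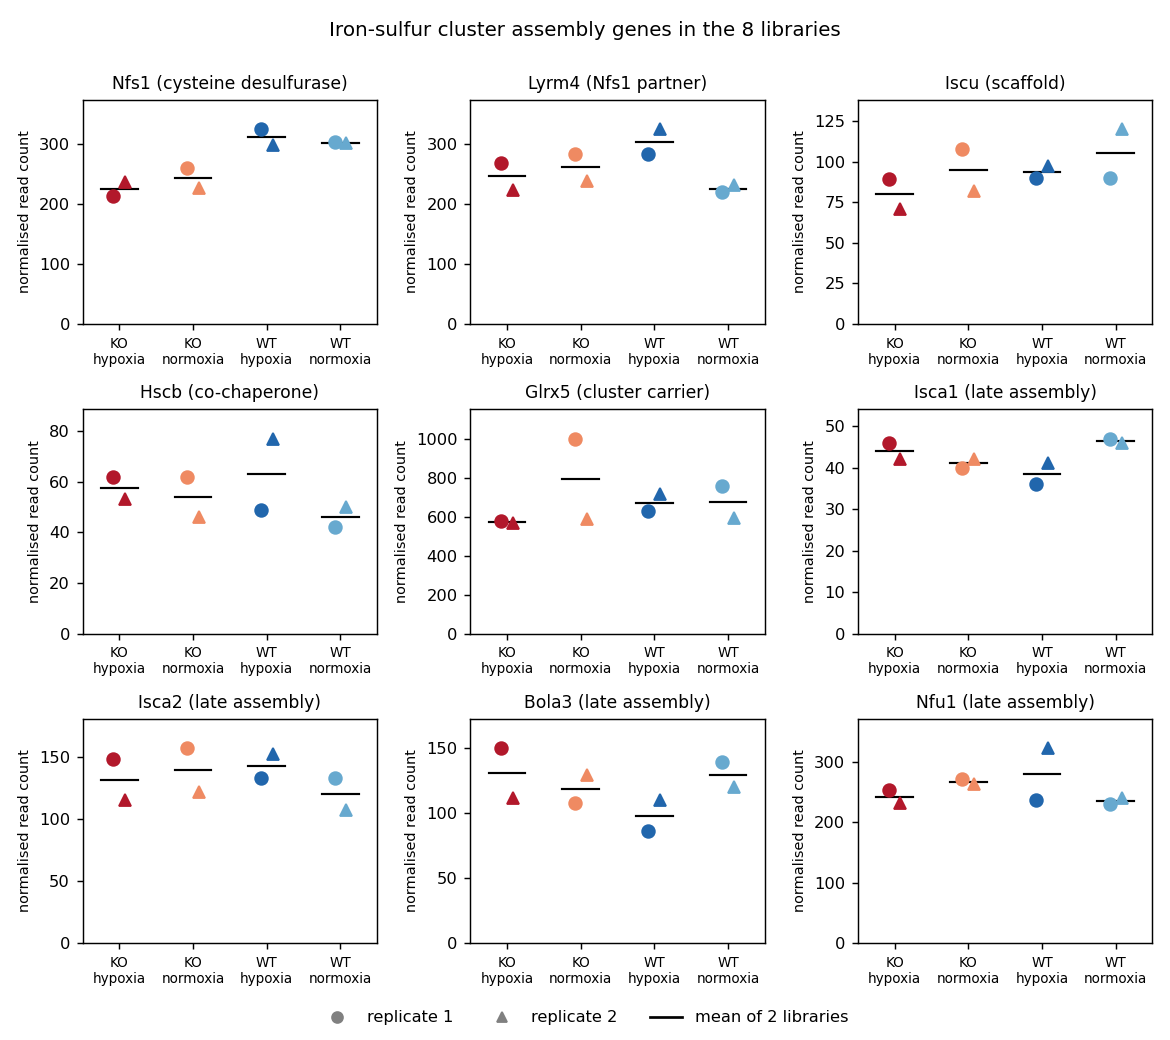
Normalised read counts (y axes, each from 0) of the 9 assembly genes in KO hypoxia, KO normoxia, WT hypoxia and WT normoxia (x axes), with circles for replicate 1, triangles for replicate 2 and lines for the mean of the 2 libraries. Nfs1 is lower in all 4 KO libraries (213 to 260) than in the 4 WT libraries (298 to 325), Glrx5 has a single high library (1001), and Iscu overlaps between hypoxia and normoxia in both genotypes.

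None of the 9 genes passed the test in any comparison. In the step that supplies sulfur, Nfs1 values were lower in KO than in WT cells in every library. The cysteine desulfurase Nfs1 had 213 and 237 normalised counts in KO hypoxia and 260 and 227 in KO normoxia, against 325 and 298 in WT hypoxia and 303 and 302 in WT normoxia. The 4 KO libraries averaged 234.2 ± 19.8 and the 4 WT libraries 307.0 ± 12.2 (SD, n = 4 each), and the groups did not overlap. The log2 fold change of KO over WT at both oxygen levels was -0.39 (95% confidence interval -0.73 to -0.05), a ratio of 0.762. Its unadjusted p was 0.028 and its adjusted p over all tested features 0.742 (limma), so it is not called. In this comparison 3 features passed the adjusted threshold (0.0248%), and 442 features had groups that did not overlap (3.65%), of which 206 were lower in KO (1.7%). Of the 9 genes, Nfs1 alone had no overlap.

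Nfs1 lies on chromosome 2 (156123639 to 156144186, minus strand, GRCm38). It overlaps Romo1 on the plus strand and Gm28036, which has no row among the deposited features, on the minus strand. The sources used here do not say whether reads were counted by strand. Romo1, a mitochondrial inner membrane protein, had 72 and 66 counts in KO hypoxia and 127 and 93 in KO normoxia, against 79 and 139 in WT hypoxia and 78 and 78 in WT normoxia. Its KO and WT libraries overlapped, with a log2 fold change of -0.06 (adjusted p 0.986, limma). The summed keratinocyte markers also separated the genotypes, at 62 to 69 in KO hypoxia and 70 to 76 in KO normoxia, against 44 to 57 in WT hypoxia and 35 to 38 in WT normoxia. Of the 7 keratinocyte markers, Krt5 and Krt1 were at the lowest value in every library. Summed adipocyte markers stood at 193 to 199 in KO hypoxia and 198 to 238 in KO normoxia, against 189 to 512 in WT hypoxia and 264 to 568 in WT normoxia. Summed muscle markers stood at 711 to 719 in KO hypoxia and 459 to 531 in KO normoxia, against 700 to 908 in WT hypoxia and 662 to 1402 in WT normoxia. For both lists KO and WT overlapped in hypoxia and not in normoxia. In KO over WT at both oxygen levels, all 3 tested adipocyte markers were negative (median -1.21) and all 3 tested muscle markers (median -0.47). Of each list, 2 had an unadjusted p under 0.05. Of 3 tested keratinocyte markers, 1 was at that level, with log2 fold changes of the list from -0.03 to 1.32. Of 11 fibroblast markers, 4 were at that level, with log2 fold changes of the list from -1.96 to 0.53. Over all tested features, 6316 of 12107 were negative and 6.07% had an unadjusted p under 0.05. None of these markers was called (limma), and their part in the Nfs1 values was not tested.

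Lyrm4, the small protein that binds and stabilises Nfs1, had 269 and 223 counts in KO hypoxia and 284 and 239 in KO normoxia, against 283 and 325 in WT hypoxia and 220 and 231 in WT normoxia. The WT hypoxia pair was above the WT normoxia pair, while the KO pairs overlapped. The log2 fold change of hypoxia over normoxia was -0.09 in KO cells (95% confidence interval -0.60 to 0.42) and 0.43 in WT cells (-0.08 to 0.93). The difference of these responses, KO minus WT, was -0.52 ± 0.32 (SE), with an adjusted p of 0.857 (limma). Lyrm4 lies on chromosome 13 (35978395 to 36117526, minus strand) and overlaps Fars2, the mitochondrial phenylalanine-tRNA ligase gene, on the plus strand.

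Iscu, the scaffold itself, had 89 and 71 counts in KO hypoxia and 108 and 82 in KO normoxia, against 90 and 97 in WT hypoxia and 90 and 120 in WT normoxia. The lowest value came from KO hypoxia and the highest from WT normoxia, and hypoxia and normoxia overlapped in both genotypes. In hypoxia alone, both KO libraries lay below both WT libraries, by 1 count at the nearest (89 against 90). The log2 fold change of hypoxia over normoxia was -0.24 ± 0.28 (SE) in KO cells, with a 95% confidence interval of -0.87 to 0.39, and -0.15 ± 0.28 in WT cells, with an interval of -0.79 to 0.48. The adjusted p-values were 0.923 in KO cells and 0.952 in WT cells (limma). On the linear scale these intervals run from 0.546-fold to 1.31-fold in KO cells and from 0.580-fold to 1.40-fold in WT cells, so a fall of Iscu in hypoxia by 1.5-fold lies inside both. Fewer transcripts per cell and fewer expressing cells cannot be told apart in such bulk libraries.

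The KO and WT responses of Iscu to hypoxia differed by -0.09 ± 0.40 (SE) on the log2 scale, KO minus WT (95% confidence interval -0.98 to 0.81, adjusted p 0.972, limma). KO over WT was -0.23 in hypoxia (adjusted p 0.811) and -0.14 in normoxia (adjusted p 1), with 95% confidence intervals of -0.86 to 0.40 and of -0.77 to 0.49. Both estimates for this carrier of a miR-210 seed match were therefore below 0, within intervals that include 0. Over both genotypes, Iscu had a median of 89.5 in the 4 hypoxia libraries (71 to 97) and 99.0 in the 4 normoxia libraries (82 to 120), and an exact permutation test gave p = 0.257 (two-sided). Over both oxygen levels it averaged 87.5 ± 15.5 in KO and 99.2 ± 14.2 in WT cells (SD, n = 4 each), with an exact permutation p of 0.314. The smallest p either test could give is 0.0286. Iscu lies on chromosome 5 (113772748 to 113778288, plus strand), with no overlapping gene annotated.

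Neither of the genes that pass the new cluster on was called. Hscb, the co-chaperone that brings the loaded scaffold to its chaperone, had 62 and 53 counts in KO hypoxia and 62 and 46 in KO normoxia, against 49 and 77 in WT hypoxia and 42 and 50 in WT normoxia. Every pair of groups compared overlapped. Glrx5, the glutaredoxin that receives the cluster, had 577 and 567 counts in KO hypoxia and 1001 and 587 in KO normoxia, against 627 and 714 in WT hypoxia and 757 and 594 in WT normoxia. Both KO hypoxia libraries lay below both KO normoxia libraries, but by 10 counts at the nearest. The log2 fold change of hypoxia over normoxia in KO cells was -0.42 ± 0.27 (SE), with an adjusted p of 0.917 (limma), and it rested on 1 library. Without KO normoxia replicate 1, the library at 1001, it was -0.04, and without the other KO normoxia library -0.81, with an adjusted p of 0.0624. In that last fit the library at 1001 stood alone for KO normoxia and was assumed to vary like the other groups, and 760 features were called, 561 higher and 199 lower in hypoxia.

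Among the late-acting genes, Isca1 and Bola3 had lower values in both WT hypoxia libraries than in both WT normoxia libraries, without a call, while Isca2 and Nfu1 were not. Isca1, which with Isca2 builds the larger clusters, had 46 and 42 counts in KO hypoxia and 40 and 42 in KO normoxia, against 36 and 41 in WT hypoxia and 47 and 46 in WT normoxia. Its 8 values spanned a narrow range, with a coefficient of variation of 8.7%, the smallest of the 9 genes. Isca1 is the other gene with a miR-210 seed match. Its log2 fold change of hypoxia over normoxia was 0.10 in KO cells (95% confidence interval -0.58 to 0.77) and -0.27 in WT cells (-0.94 to 0.40). The difference, KO minus WT, was 0.37 ± 0.43 (SE), with an adjusted p of 0.872 (limma), from 29.3 to 61.3 estimated reads per library and a counting error of 12.8% to 18.5%. Isca1 lies on chromosome 13 (59755409 to 59769810, minus strand). It overlaps Etohd2 on the plus strand and Gm49354, which has no row among the deposited features, on the minus strand. Etohd2 had 25 and 20 counts in KO hypoxia and 26 and 13 in KO normoxia. Its WT values were 12 and 25 in hypoxia and 14 and 11 in normoxia.

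Bola3, needed to deliver clusters to lipoyl synthase, had 150 and 112 counts in KO hypoxia and 108 and 129 in KO normoxia, against 86 and 110 in WT hypoxia and 139 and 120 in WT normoxia. In WT cells hypoxia lay below normoxia without overlap, while the KO pairs overlapped. The response was 0.13 in KO and -0.41 in WT cells on the log2 scale, and the difference 0.54 ± 0.38 (SE, 95% confidence interval -0.32 to 1.40). Isca2 had 148 and 115 counts in KO hypoxia and 157 and 122 in KO normoxia, against 133 and 152 in WT hypoxia and 133 and 107 in WT normoxia. No comparison separated its groups. Nfu1, a late carrier of clusters, had 253 and 232 counts in KO hypoxia and 272 and 263 in KO normoxia, against 237 and 323 in WT hypoxia and 231 and 241 in WT normoxia. Here the KO hypoxia pair lay below the KO normoxia pair and the WT pairs overlapped. The response was -0.14 in KO and 0.23 in WT cells, a difference of -0.37 ± 0.33 (SE).

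Read across the genes, 0 of 9 were called in KO hypoxia over KO normoxia, where 7 of 12107 features were (0.0578%), and 0 of 9 in WT hypoxia over WT normoxia, where 13 were (0.107%). In KO over WT in hypoxia, KO over WT in normoxia and the difference of the responses, no feature was called (0%), while 910 (7.52%), 363 (3%) and 380 (3.14%) had an unadjusted p under 0.05 (limma). The shares at that unadjusted level were 3.2% in KO hypoxia over KO normoxia, 6.33% in WT hypoxia over WT normoxia, 5.29% in hypoxia over normoxia in both genotypes and 6.07% in KO over WT at both oxygen levels. There the 9 genes gave 1 hit, Nfs1 in KO over WT at both oxygen levels. Over both genotypes, hypoxia over normoxia called 44 features (0.363%) and 0 of the 9 genes. Groups that did not overlap were common with 2 libraries a side. They held 2 of the 9 genes in KO hypoxia over KO normoxia (Glrx5 and Nfu1, lower) beside 32.2% of all tested features, and 3 in WT hypoxia over WT normoxia (Lyrm4 higher, Isca1 and Bola3 lower) beside 38.8%. KO over WT separated 6 genes in hypoxia (Iscu, Nfs1, Lyrm4 and Glrx5 lower, Isca1 and Bola3 higher) beside 50.8% of all features, and 4 in normoxia (Nfs1 and Isca1 lower, Lyrm4 and Nfu1 higher) beside 21%. Hypoxia against normoxia over both genotypes separated 0 of the 9, beside 3.71%.

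**Figure D2:**
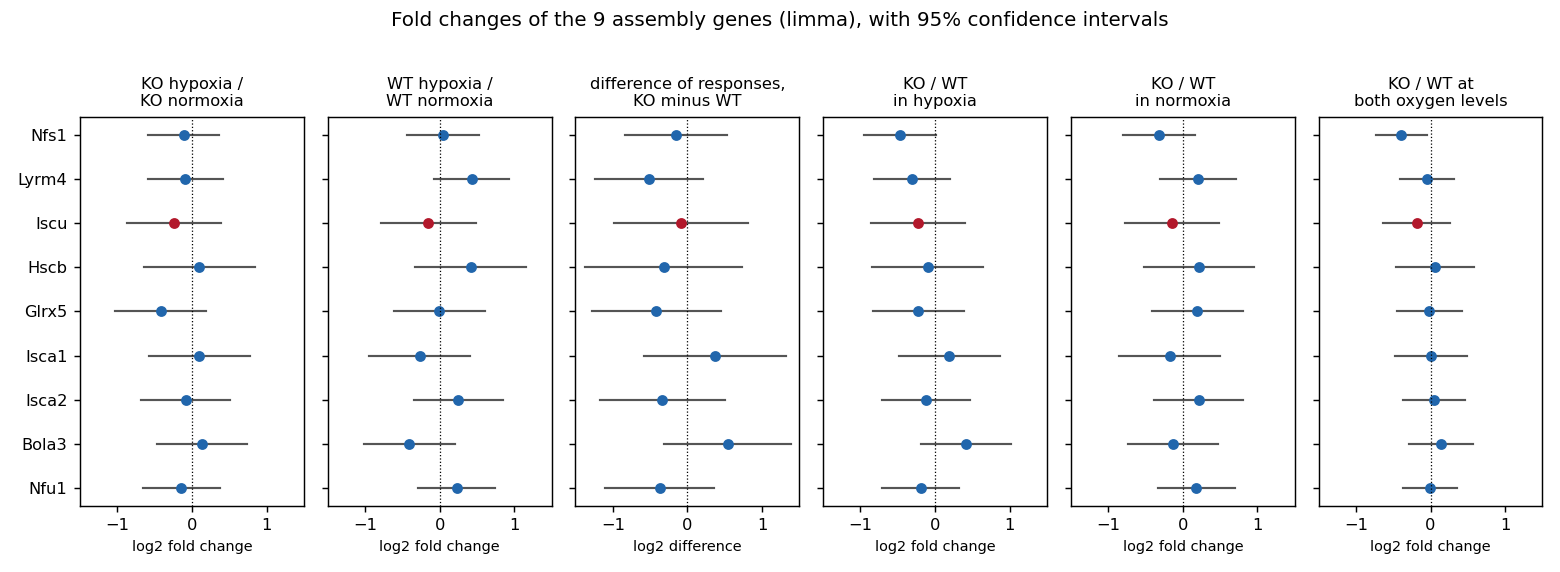
Log2 fold changes or differences (x axes) of the 9 assembly genes (rows, Iscu in red) from limma, with lines for 95% confidence intervals, in 6 comparisons. The Nfs1 interval for KO over WT at both oxygen levels (-0.73 to -0.05) lies below 0, and every other interval drawn crosses it.

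The median log2 fold change of the 9 genes was -0.09 in KO hypoxia over KO normoxia and 0.04 in WT hypoxia over WT normoxia, beside 0.01 and -0.02 over all tested features. The difference of the responses, KO minus WT, was negative for 7 of the 9 genes, with a median of -0.32 beside 0.01 over all features, of which 48.9% were negative. Isca1 (0.37) and Bola3 (0.54) were the exceptions. KO over WT had a median of -0.19 in hypoxia and 0.18 in normoxia, beside -0.01 and -0.02 over all features. The median of the differences ran from -0.43 to -0.06 when single libraries were left out, with -0.06 when KO normoxia replicate 1 was absent. Absence of WT hypoxia replicate 2 gave -0.15, that of KO hypoxia replicate 2 gave -0.20 and that of WT normoxia replicate 1 gave -0.19. It was -0.12 with the length trend removed, and 0.06 without KO normoxia replicate 1 and WT hypoxia replicate 2 together.

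Of the 9 genes, 8 varied less over the libraries than the median tested feature, and Glrx5 more. Their coefficients of variation over all 8 libraries ran from 8.7% for Isca1 to 21.8% for Glrx5, with Iscu at 16.2%, beside a median of 21.1% over tested features. Correlations were taken across the 8 libraries, which differ in depth and group, and such differences act on both genes of a pair. The log2 values of Isca1 and Bola3 had a Pearson r of 0.90, picked as the highest of all pairs. Isca1 varied by 8.7%, less than its counting error of 12.8% to 18.5% per library. Lyrm4, Hscb, Isca2 and Nfu1 formed another set, with r between 0.60 and 0.81 for its pairs, and Isca2 had an r of 0.64 with Glrx5 as well. Iscu went with none of the others closely, with r from -0.08 (Bola3) to 0.47 (Nfs1). Among 6054 genes at or above the median level of tested features, the 5 most like Iscu over the 8 libraries were Mmadhc (r 0.954), Igsf8 (0.925), Nsun4 (0.921), Tm7sf3 (0.915) and Armcx2 (0.909). Mmadhc, a cobalamin-trafficking protein, had 683 and 602 counts in KO hypoxia and 804 and 672 in KO normoxia, against 771 and 789 in WT hypoxia and 739 and 880 in WT normoxia. Like Iscu, it was lowest in KO hypoxia replicate 2 and highest in WT normoxia replicate 2. These values of r are picked from the top of many genes and describe these libraries only.

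The promoters were searched only for the core letters that HIF binds, ACGTG or GCGTG on either strand. RefSeq windows from 250 bases before to 50 after the start (GRCm38.p6) were at hand for 7 of the 9 genes. Iscu and Hscb had no window. The letters were found in the windows of Nfs1, Lyrm4, Glrx5 and Isca2, in each case as GCGTG. Of all 32851 windows, 32.4% held GCGTG and 43.8% held either form. Isca1, Bola3 and Nfu1 held neither in these windows.

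Other genes of cluster assembly were also without a call. Of 20 further mitochondrial assembly genes, which include the ferredoxins and the chaperone Hspa9, 0 passed in any comparison. Their median log2 fold change of hypoxia over normoxia was -0.23 in KO cells (1 of 20 at an unadjusted p under 0.05, beside 3.2% of all tested features) and 0.14 in WT cells (2 of 20, beside 6.33%). In KO over WT in hypoxia, 16 of the 20 were negative, beside 6172 of 12107 tested features. The median was -0.19, beside -0.01 over all tested features. In this comparison 4 of 20 had an unadjusted p under 0.05, beside 7.52%. Gfer, a sulfhydryl oxidase of the intermembrane space, had 415 and 382 counts in KO hypoxia and 669 and 524 in KO normoxia, against 572 and 582 in WT hypoxia and 548 and 441 in WT normoxia. Its KO libraries were lower in hypoxia and its WT libraries higher, without overlap in either genotype. The difference of the responses was -0.80 ± 0.32 (SE), with an unadjusted p of 0.0306 and an adjusted p of 0.857 (limma). Hspe1, the mitochondrial co-chaperonin, and Fdx1, a ferredoxin, had the smallest p-values in KO over WT in hypoxia, with log2 fold changes of -0.71 and -0.59 (adjusted p 0.641 each). In WT cells the assembly factor genes Acn9 (now Sdhaf3) and Lyrm7 had log2 fold changes of 0.94 and -1.01 in hypoxia over normoxia (adjusted p 0.773 and 0.784).

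Cluster assembly outside the matrix was followed in a list of its own. Of 14 genes that build or deliver cytosolic clusters, with the CISD proteins included, 0 passed in any comparison, and 0 reached an unadjusted p under 0.05 (limma). Their median was -0.25 in KO hypoxia over KO normoxia and 0.04 in WT hypoxia over WT normoxia. The nearest to the threshold were Glrx3, a cytosolic glutaredoxin, at -0.62 in KO over WT in hypoxia (unadjusted p 0.0529), and Fam96b (now Ciao2b), a targeting factor, at 0.53 in WT hypoxia over WT normoxia (unadjusted p 0.0561).

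**Figure D3:**
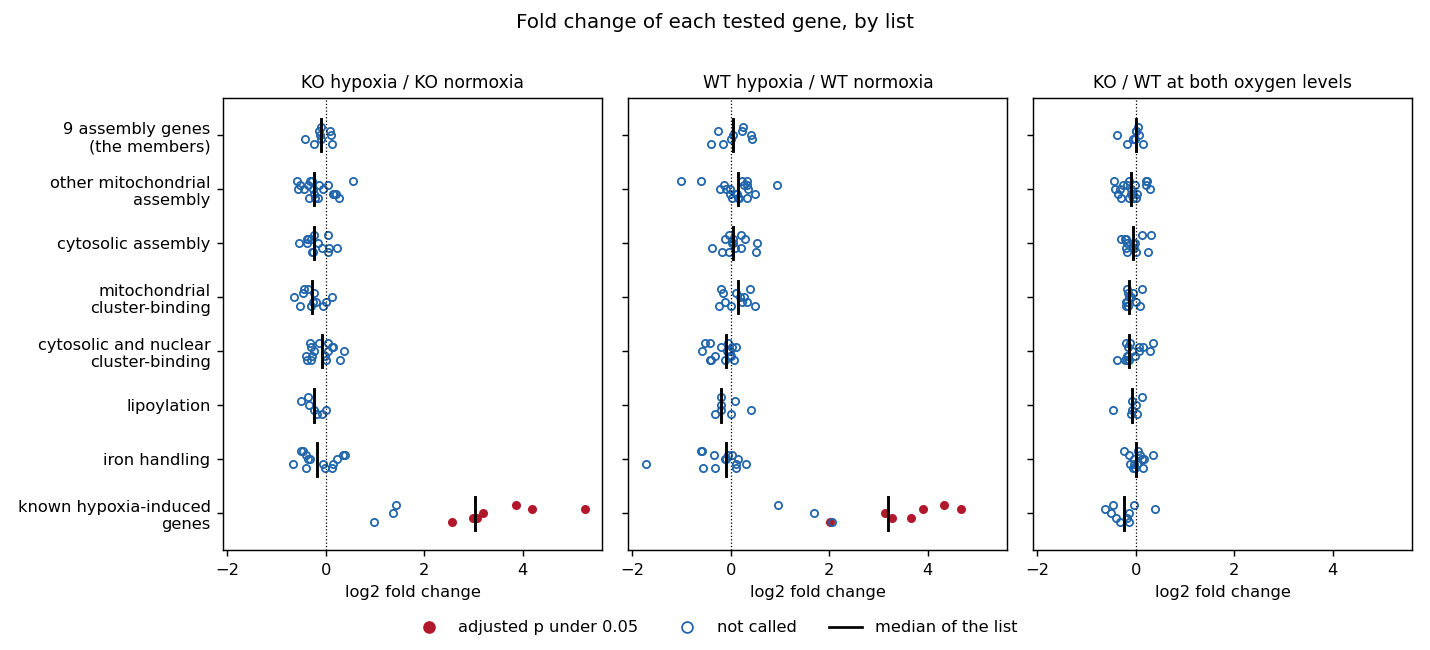
Log2 fold change (x axes) of each tested gene (points) in 8 gene lists (rows), with vertical lines for list medians and filled points for an adjusted p under 0.05, in KO hypoxia over KO normoxia, WT hypoxia over WT normoxia, and KO over WT at both oxygen levels. Known hypoxia-induced genes have medians of 3.03 in KO and 3.20 in WT cells, with 7 of 10 called in each, and no gene of the other lists is called.

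The proteins that receive the clusters were measured as transcripts too. All 12 genes for mitochondrial cluster-binding proteins had a negative difference of responses, KO minus WT, with a median of -0.24, beside 48.9% of all tested features with a negative difference. None of the 12 passed the test, and 1 had an unadjusted p under 0.05. That gene was Sdhb, the iron-sulfur subunit of succinate dehydrogenase, with 1162 and 962 counts in KO hypoxia and 1952 and 1185 in KO normoxia, against 1650 and 1813 in WT hypoxia and 1210 and 1252 in WT normoxia. It was lower in hypoxia in KO cells and higher in hypoxia in WT cells, without overlap, and KO normoxia replicate 1 stood far above its partner. The difference was -1.02 ± 0.37 (SE), with an adjusted p of 0.857 (limma). Ndufs8, a complex I subunit that carries clusters, had a log2 fold change of -0.64 in KO hypoxia over KO normoxia (adjusted p 0.917).

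Of 17 genes for cytosolic and nuclear cluster-binding proteins, 16 were tested and 0 passed. In hypoxia over normoxia over both genotypes, 13 of the 16 were negative, with a median of -0.14, beside 49.6% of all tested features. Aco1, the cytosolic aconitase that becomes an iron-regulatory RNA-binding protein when it lacks its cluster, had the smallest p. It stood at 796 and 838 counts in KO hypoxia and 1237 and 929 in KO normoxia, against 879 and 821 in WT hypoxia and 1084 and 1035 in WT normoxia. In both genotypes hypoxia lay below normoxia without overlap, and the log2 fold change was -0.36 ± 0.15 (SE), with an unadjusted p of 0.0444 and an adjusted p of 0.922 (limma). Pole, the catalytic subunit of a replicative DNA polymerase, was at -0.58 in WT hypoxia over WT normoxia (adjusted p 0.784).

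Lipoylation needs Lias, lipoyl synthase, a cluster enzyme supplied by Nfu1 and Bola3. Of 7 lipoylation genes, with Lias counted here and among the mitochondrial cluster-binding proteins, 0 passed, with a median of -0.23 in KO hypoxia over KO normoxia and -0.20 in WT hypoxia over WT normoxia. Gcsh, a lipoylated protein of glycine cleavage, was at -0.49 in KO hypoxia over KO normoxia (unadjusted p 0.0487, adjusted p 0.917, limma).

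Iron handling held the smallest p-values among the pathway lists. Of 16 genes, with Aco1 and Ireb2 counted here as well as among the cluster-binding proteins, 14 were tested and 0 passed, and 4 had an unadjusted p under 0.05 in hypoxia over normoxia over both genotypes (limma), where 5.29% of all tested features did. Slc40a1, the iron exporter ferroportin, was a low transcript, at 10 and 10 counts in KO hypoxia and 12 and 22 in KO normoxia, against 9 and 5 in WT hypoxia and 21 and 29 in WT normoxia. Hypoxia lay below normoxia in both genotypes, by 2 counts at the nearest in KO cells. Its log2 fold change over both genotypes was -1.19 ± 0.36 (SE), with an adjusted p of 0.668. Hmox1, the haem oxygenase that frees iron from haem, had 1026 and 998 counts in KO hypoxia and 1319 and 1468 in KO normoxia, against 1268 and 1025 in WT hypoxia and 1999 and 1492 in WT normoxia. It too was lower in hypoxia in both genotypes without overlap, with a log2 fold change of -0.53 ± 0.16 (SE) and an adjusted p of 0.685.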

How the data were processed

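The 8 libraries were made from total RNA with a small RNA set for the SOLiD sequencer, per the labels' protocols. The deposited table holds a score per feature, named by the authors as normalised read counts and rounded to whole numbers of at least 1. Not given in the sources used here were the aligner, counting program, strand use, genome build and normalization method. Depth was estimated from the spacing of low values, and no feature stood at a low value that a whole number of reads could not give. This check could not fail in KO hypoxia replicate 2, KO normoxia replicate 2 and WT normoxia replicate 1, where every low value was possible. Theirs were the highest estimates (10.72 M, 11.75 M and 10.14 M reads), so the check does not bear on the upper end of the range. Rounding hides the reads, so no count model was run. The members and gene lists were chosen with earlier results of these data known.

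Values were taken as log2(value + 1), which understates fold changes of low genes. Testing was limited to features that reached 10 in 2 or more libraries (12107 of 17091). In limma (version 3.58.1, under R 4.3.3) the 8 libraries entered a single 4-group model with an intensity trend and no replicate term. The moderated test had 10.2 degrees of freedom in total, part of them borrowed from the spread of all tested features. Within each comparison a Benjamini-Hochberg adjusted p over all tested features was called at 0.05. The fit was checked on simulated data. Exact permutation tests (two-sided) were run on log2 values of 4 against 4 libraries for Iscu. Named genes were the 9 members, Mir210, genes of each list past the threshold or with the 2 smallest p-values in a comparison, and the 5 genes most correlated with Iscu. Not every gene this rule allows is printed. Annotation came from GENCODE M21 (GRCm38). The 20 alternatives covered normalization, pseudocount, filter, trend, weights, length, a replicate term and left-out libraries.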

Additional observations from a re-analysis of the deposited data

Results flagged for a closer look

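Lyrm4 was lower in KO than in WT cells in hypoxia in every library and higher in normoxia in every library, and the difference between these contrasts was -0.52 on the log2 scale (adjusted p 0.857, limma). Isca1 showed the opposite arrangement, higher in KO in hypoxia and lower in normoxia, with a difference of 0.37 (adjusted p 0.872, limma). The nearest Isca1 values in hypoxia were 42 in KO and 41 in WT cells. Fars2, which overlaps Lyrm4 on the other strand, was also lower in KO in hypoxia in every library, but overlapped in normoxia. KO and WT groups did not overlap for 50.8% of all tested features in hypoxia and 21% in normoxia. How many features were separated in opposite directions was not counted. Glrx5 stood at 1001 normalised counts in KO normoxia replicate 1, far above the other KO libraries, with a gap of 0.954 of the whole range of the 4. Nfu1 stood at 323 in WT hypoxia replicate 2, far above the other WT libraries, with a gap of 0.891 of their range. The last pair came from 36 sets of 4 libraries examined, where chance flags about 1 in 20.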

How the results depend on the processing

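With 2 libraries a group, only large changes could be called. No member was called under any of the 20 alternatives, and 68 of 1226 member values turned direction, over 24 of 63 results. Nothing in the labels says that a replicate number marks a shared culture or day. Deviations of same-numbered libraries correlated at 0.57 between the WT groups, 0.23 between the KO groups and -0.11 to 0.11 across genotypes, so pairing within a genotype is possible but not shown. With the replicate block, called features were 11 against 7 in KO hypoxia over KO normoxia, 19 against 13 in WT hypoxia over WT normoxia, and 56 against 44 in hypoxia over normoxia in both genotypes. For KO hypoxia over KO normoxia the count of called features was 7, against 2 from only the groups compared and 11 with the length trend removed. For WT hypoxia over WT normoxia it was 13, against 6 with no filter, 7 from only the groups compared and 21 with array weights. For hypoxia over normoxia in both genotypes it was 44, against 24 with no filter and 21 with no intensity trend, and for KO over WT at both oxygen levels 3, against 0 with no filter, with a filter at 50 and with no intensity trend. The difference of responses and the pooled comparisons use all groups and gave no value from only the groups compared. With the length trend removed, direction turned for Nfs1 in WT hypoxia over WT normoxia (-0.020), Hscb in KO over WT in hypoxia (0.085), the difference of responses of Iscu (0.039), Nfu1 in hypoxia over normoxia in both genotypes (-0.024), and Glrx5 (0.013), Isca1 (-0.013) and Nfu1 (0.023) in KO over WT at both oxygen levels. Glrx5 turned to 0.0016 in WT hypoxia over WT normoxia with median-ratio scaling and to 0.0013 in KO over WT at both oxygen levels with quantile normalization. The cause was not tested.

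Leaving out libraries gave these ranges. Called features ran from 4 to 760 in KO hypoxia over KO normoxia (760 without KO normoxia replicate 2), from 1 to 20 in WT hypoxia over WT normoxia, from 12 to 50 in hypoxia over normoxia in both genotypes, and were 0 in KO over WT at both oxygen levels. In KO hypoxia over KO normoxia, Lyrm4 ran from -0.22 to 0.046, Hscb from -0.11 to 0.31, Isca2 from -0.27 to 0.096 and Bola3 from -0.075 to 0.34. In WT hypoxia over WT normoxia, Iscu ran from -0.36 to 0.053, Nfs1 from -0.022 to 0.10 and Glrx5 from -0.18 to 0.17. In KO over WT in hypoxia, Hscb ran from -0.42 to 0.22, Isca2 from -0.30 to 0.057 and Nfu1 from -0.41 to 0.032. In KO over WT in normoxia, Iscu ran from -0.35 to 0.064 and Glrx5 from -0.19 to 0.58. For the difference of responses, the median of the members ran from -0.43 to 0.059, Iscu from -0.29 to 0.16, Hscb from -0.64 to 0.22 and Glrx5 from -0.80 to 0.059. In hypoxia over normoxia in both genotypes, Nfs1 ran from -0.084 to 0.044, Isca2 from -0.0070 to 0.17 and Nfu1 from -0.068 to 0.15. In KO over WT at both oxygen levels, Nfs1 ran from -0.47 to -0.34, Lyrm4 from -0.12 to 0.018, Hscb from -0.10 to 0.22, Glrx5 from -0.21 to 0.18, Isca1 from -0.040 to 0.069, Isca2 from -0.046 to 0.14 and Nfu1 from -0.12 to 0.11.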

Other observations

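The genes that hold the miR-210 seed match ACGCACA in their longest 3′ UTR were looked at together, a list drawn up after the data were seen and given as a description with no test. Of these, 406 were tested, Isca1 among them and Iscu not, since the longest Iscu 3′ UTR lacks the match. The KO minus WT difference in the response to hypoxia was positive for 281 of the 406 (69.2%), with a median of 0.24 on the log2 scale, beside 5650 of 10787 genes with any annotated 3′ UTR (52.4%), with a median of 0.03. In hypoxia over normoxia, 59.9% were positive in KO cells, with a median of 0.10, beside 50.6% of genes with a 3′ UTR. This KO share rested on KO normoxia replicate 1: without it, 192 of the 406 were positive (47.3%), with a median of -0.01, beside 46.6%. In WT cells 33.5% were positive, with a median of -0.12, beside 46.1%, and the share was between 33.0% and 38.7% with any 1 WT library left out. KO over WT was positive for 63.8% in hypoxia, with a median of 0.17, beside 49.9%. In normoxia it was positive for 39.4%, with a median of -0.07, beside 46.6%. Without KO normoxia replicate 1 the normoxia share was 55.2%, with a median of 0.04, beside 49.1%. No gene of the list passed the test of the difference, and 10 had an unadjusted p under 0.05 (limma). Transcripts with the match were longer, with a median of 1962 bases beside 1438 over genes with a 3′ UTR, and the length dependence differed between libraries. With the length trend removed, the share with a positive difference of responses was 64.8% beside 50.3% and the median 0.19 beside 0.00. Leaving out 1 library at a time kept the share between 67.2% and 69.0%, and the median was lowest, at 0.13, without KO normoxia replicate 1 and highest, at 0.38, without KO normoxia replicate 2. Without KO normoxia replicate 1 and WT hypoxia replicate 2 together, the share was 60.1% beside 51.1% and the median 0.07 beside 0.01.

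Pdk1, the kinase that inhibits pyruvate dehydrogenase, is on this list and was the only gene of it called in hypoxia over normoxia, with a log2 fold change of 3.07 in KO cells (adjusted p 0.0045) and 3.27 in WT cells (adjusted p 0.0025, limma).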
